A study of Triticum aestivum with 23 samples.

Results

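A set of 135 wheat genes had higher transcript levels in both dwarf mutants of the series, *tabri1-a.1bd* as well as *tabri1-a.2bd*, than in 3 control genotypes, while the mild mutant *tabri1-a.3bd* stayed near the controls. The genes were chosen by their measured values. On the scale of log2(genotype mean TPM + 0.5), where TPM are read counts scaled for gene length and for the total of the library, each dwarf mutant had to exceed the highest of *TaBRI1-NS*, Cadenza and *tabri1-bd* by at least 1, and *tabri1-a.3bd* had to lie within 0.5 of the mean of those 3 genotypes. Of 106838 high-confidence gene models outside a list of 76 genes of the brassinosteroid (BR) pathway, 135 met the rule, which is below its limit of 200 genes. The smaller of the 2 differences over the highest control genotype is called the smaller excess here. Because the rule used these differences, levels in the dwarf mutants against the controls are given as a description and support nothing further. Genes are given by identifier, as few of them have a functional term in the sources used here.

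The data were TPM of 23 RNA-seq libraries from the whole above-ground tissue of bread wheat seedlings at leaf stage 2, grown in continuous light. Cadenza, *TaBRI1-NS*, *tabri1-bd*, *tabri1-a.3bd* and *tabri1-a.2bd* had 4 libraries each, and *tabri1-a.1bd* had 3. All mutants shared premature stop codons in the B and D copies of *TaBRI1* (*tabri1-b* and *tabri1-d*), and *tabri1-bd* kept an intact A copy. The triple mutants added to these a stop codon in the A copy (*tabri1-a.1*), an amino acid substitution in its leucine-rich repeats (*tabri1-a.2*) or a substitution in its kinase domain (*tabri1-a.3*). Cadenza is the cultivar that was mutagenised, and *TaBRI1-NS* is the segregant without the mutations from the backcross population that gave *tabri1-bd* and *tabri1-a.1bd*. Both substitutions came from a second mutagenesis of *tabri1-bd*, each from 1 line, so other mutations of a line cannot be told apart from the allele. The tissue pooled several plants, and the sources do not say whether libraries of 1 genotype came from separate sowings, so p-values measure the spread between these libraries.

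BRs are steroid hormones that promote cell elongation. BRI1 is their receptor at the cell surface, and its kinase starts a cascade that ends in transcription factors of the BZR family, which switch many genes on and others off. In cereals, plants with little BRI1 function are short with dark, upright leaves. Genes of BR synthesis are known to be held down by the hormone's own signal.

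Reads recovered from the TPM summed to 22615681 to 38462918 per library. *TaBRI1-A*, the copy whose allele differs, was at 4.68, 7.48 and 7.43 TPM in *tabri1-a.1bd*, between 5.8 and 6.57 TPM in *tabri1-a.2bd* and between 6.15 and 7.61 TPM in *tabri1-a.3bd*, against 3.9 to 5.39 TPM in the 12 control libraries. By limma it was called higher than in *TaBRI1-NS* in all 3 triple mutants, and only replicate 1 of *tabri1-a.1bd* lay within the control range. The D copy was also called higher in all 3 triple mutants, and the B copy in *tabri1-a.1bd* and *tabri1-a.3bd* but not in *tabri1-a.2bd*. In bulk tissue, more cells of a type and more RNA per cell cannot be told apart. Tissue markers were not checked, as the identifiers come without gene descriptions. Replicate 1 of *tabri1-a.1bd* stood apart from replicates 2 and 3. It lay at least 1 on the log2 scale from the mean of the other replicates in 21088 of 83495 genes tested (25.3%), against 8560 genes (10.3%) for replicate 2 and 12868 genes (15.4%) for replicate 3. Its depth of 35037625 reads was the highest of the 3. The counts of calls in the dwarf mutants are therefore also given without it.

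The raised genes were low in most control libraries. The median of the 16 other libraries was below 1 TPM for 72 of the 135 genes and below 10 TPM for 119. The median gene of the 135 was at 16 TPM in *tabri1-a.1bd* but at 4.78 TPM in *tabri1-a.2bd*, against 1.13 TPM in *tabri1-a.3bd*, 0.88 TPM in *tabri1-bd*, 1.15 TPM in *TaBRI1-NS* and 0.753 TPM in Cadenza. The excess over the highest control genotype had a median of 2.48 on the log2 scale in *tabri1-a.1bd* (1.01 to 8.82) and of 1.39 in *tabri1-a.2bd* (1.00 to 3.74). A mean at least 10 times that of the highest control genotype was seen for 65 genes in *tabri1-a.1bd* and for 20 genes in *tabri1-a.2bd*.

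The level of the set differed among the dwarf libraries. As the median log2 difference from the mean of the 12 libraries of *tabri1-bd*, *TaBRI1-NS* and Cadenza, it was 1.19 in replicate 1 of *tabri1-a.1bd*, 2.77 in replicate 2 and 3.19 in replicate 3. The libraries of *tabri1-a.2bd* lay at 1.69, 1.58, 1.58 and 1.58, those of *tabri1-a.3bd* between -0.04 and 0.33, and the remaining 12 between -0.17 and 0.18. The rule fixed the direction of this difference but not the order among the 7 dwarf libraries, of which replicate 1 was the lowest. Within genotypes, the median SD of a gene on the log2 scale was 1.05 in *tabri1-a.1bd* and 0.29 to 0.37 in the other genotypes.

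**Figure D1:**
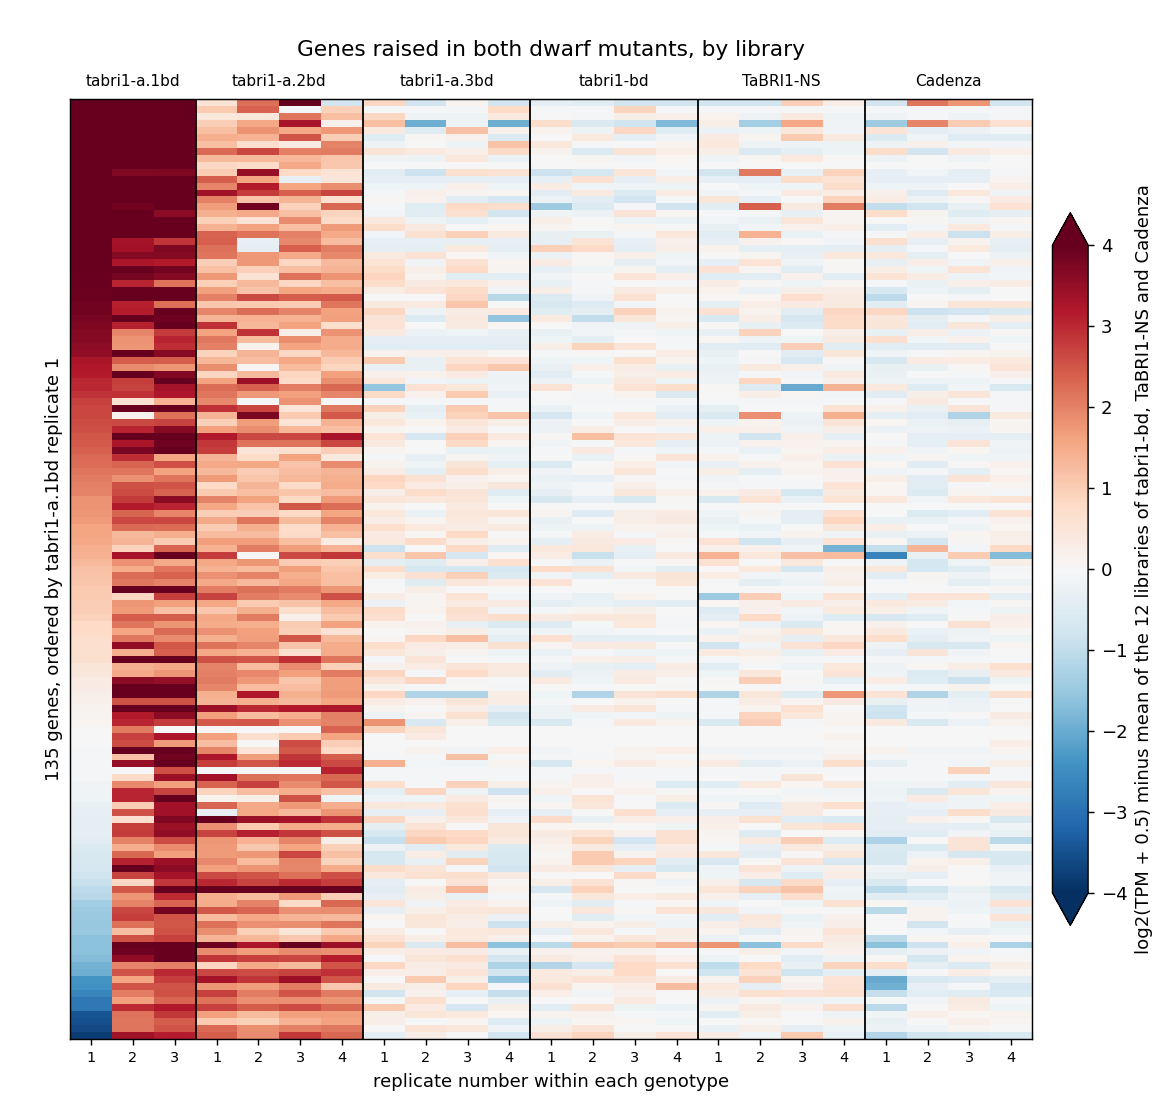
Each row is 1 of the 135 genes and each column 1 of the 23 libraries; colour gives log2(TPM + 0.5) minus the mean of the 12 libraries of *tabri1-bd*, *TaBRI1-NS* and Cadenza, and rows are ordered by replicate 1 of *tabri1-a.1bd*. The 7 dwarf libraries are mostly red and the other 16 pale, but in the lower rows the first column turns from pale to blue while replicates 2 and 3 stay red.

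Gene by gene, 48 of the 135 genes had all 7 dwarf libraries above all 16 others. Replicates 2 and 3 of *tabri1-a.1bd* lay above the highest of the 16 others for 130 and 134 genes, and the 4 libraries of *tabri1-a.2bd* for 121, 120, 117 and 117 genes. Replicate 1 did so for 79 genes. It lay within the range of the 16 others for 34 genes and below the lowest of them for 22 genes, and 19 genes were listed at 0 in it. In a further 45 genes, 2 libraries of *tabri1-a.1bd* and all 4 of *tabri1-a.2bd* lay above the 16 others, and in 43 of these replicate 1 was the library that did not. In 44 genes neither all 7 dwarf libraries nor all but replicate 1 lay above the 16 others. Other dwarf libraries were then inside or below the range of the 16. The rule used these values and no shares over all genes were taken, so the counts are a description only.

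The gene with the largest smaller excess, TraesCS1B03G0069700 (3.05), shows the second pattern. It was at 23, 781 and 917 TPM in *tabri1-a.1bd*, at 233, 172, 196 and 208 TPM in *tabri1-a.2bd*, and at 11.8 to 32.1 TPM (median 20.9) in the 16 other libraries. Replicate 1 lay inside the range of the others, while the remaining 6 dwarf libraries lay above it. TraesCS1A03G0675300 was at 0, 176 and 96.9 TPM in *tabri1-a.1bd* and at 23.1, 14.3, 31.8 and 16.2 TPM in *tabri1-a.2bd*, against 0 to 4.72 TPM (median 1.31) in the others. TraesCS4B03G0575000 was at 0.813, 49.9 and 77.1 TPM and at 31.1, 28.1, 27.3 and 37.4 TPM, against 2.17 to 6.26 TPM (median 3.99). In this gene replicate 1 was below every other library.

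A low replicate 1 was also seen in 3 more of the 10 genes with the largest smaller excess. TraesCS4B03G0941100 was at 0.359, 9.75 and 14.6 TPM in *tabri1-a.1bd*, at 5.6, 4.61, 6.59 and 5.06 TPM in *tabri1-a.2bd*, and at 0.0603 to 1.88 TPM (median 0.387) elsewhere. TraesCS2A03G0168200 was at 0, 0.656 and 7.01 TPM and at 4.39, 1.15, 3.28 and 2.29 TPM, against 0 to 0.652 TPM elsewhere, where the median was 0. TraesCS1D03G0052800 was at 0, 5.21 and 21.1 TPM and at 21.7, 23.6, 15.8 and 25.3 TPM, against 0 to 2.09 TPM (median 0.534). For each of these genes, 2 libraries of *tabri1-a.1bd* and all 4 of *tabri1-a.2bd* were above the 16 others.

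The remaining 4 of the 10 were above the others in all 7 dwarf libraries. TraesCS3D03G0061500 was at 106, 301 and 339 TPM in *tabri1-a.1bd*, at 17, 11.4, 8.53 and 10.6 TPM in *tabri1-a.2bd* and at 0.656 to 1.77 TPM (median 1.3) elsewhere. TraesCS3D03G0347400 was at 4.22, 56.2 and 81.4 TPM and at 7.32, 4.82, 4.99 and 7.82 TPM, against 0 to 1.47 TPM (median 0.365). All libraries of *tabri1-a.1bd* were far above those of *tabri1-a.2bd* in TraesCS3D03G0061500, and all but replicate 1 were in TraesCS3D03G0347400. The other 2, TraesCS2D03G1268900 and TraesCS4A03G0123000, carry functional terms and are described below.

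**Figure D2:**
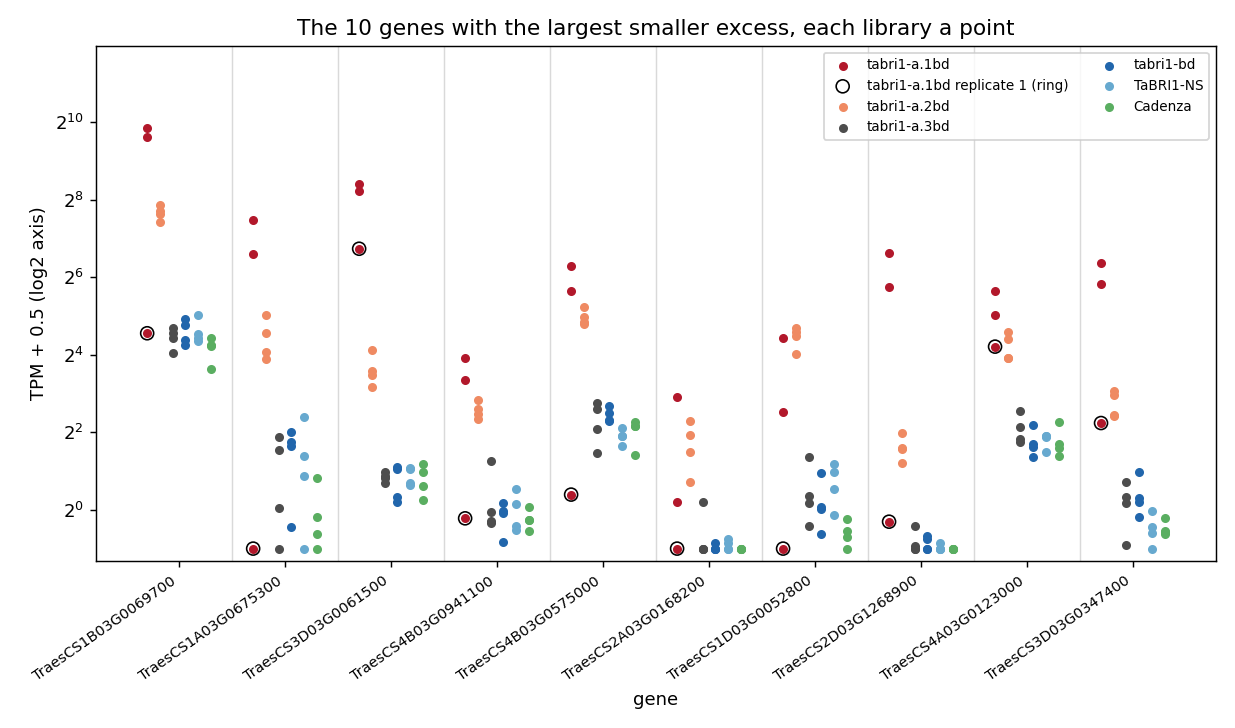
TPM + 0.5 on a log2 axis for the 10 genes with the largest smaller excess, with 1 point per library coloured by genotype and a ring around replicate 1 of *tabri1-a.1bd*. Replicate 1 sits among or below the libraries of the other genotypes in 6 of the genes and above them in TraesCS3D03G0061500, TraesCS4A03G0123000, TraesCS3D03G0347400 and, by a small margin, TraesCS2D03G1268900.

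By level, 3 genes stood out among the 6 with the highest mean TPM over the dwarf libraries. TraesCS3B03G0222300 was at 1414, 1455 and 1503 TPM in *tabri1-a.1bd*, at 446, 729, 335 and 611 TPM in *tabri1-a.2bd* and at 183 to 328 TPM (median 248) in the 16 others. It had the smallest spread within *tabri1-a.1bd* relative to its mean of these 6, at 1457 ± 44.2 TPM (SD, n = 3). TraesCS7D03G0450100 was at 1381, 730 and 408 TPM in *tabri1-a.1bd*, but at 0.717, 3.31, 14.5 and 0 TPM in *tabri1-a.2bd* and at 0 to 3.18 TPM (median 0.0581) elsewhere. Its place in the set rested on replicates 2 and 3 of *tabri1-a.2bd*, the only libraries of that genotype above the 16 others. TraesCS1B03G0068000 was at 12.3, 322 and 457 TPM in *tabri1-a.1bd*, at 522, 321, 447 and 332 TPM in *tabri1-a.2bd* and at 40.4 to 121 TPM (median 74.3) elsewhere, with replicate 1 below every other library.

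Functional terms were found for 17 of the 135 genes through the older gene identifiers that the TPM table pairs with them. The terms come from lists that the authors drew from genes that differed in these same libraries, and long lists were shortened, so the terms are labels and neither their number nor their direction is independent evidence. One more gene, TraesCS3D03G0793300, is paired with an older identifier on another chromosome and is given no term. The product name lists prepared for the set could not be applied.

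A pair of genes carries the terms of scopolin and DIMBOA glucoside beta-glucosidases. DIMBOA is a defence compound of young grasses that is stored as an inactive glucoside, and such enzymes remove the glucose. TraesCS2D03G1268900 was at 0.309, 52.8 and 97.6 TPM in *tabri1-a.1bd*, at 2.52, 2.49, 3.44 and 1.82 TPM in *tabri1-a.2bd* and at 0 to 0.247 TPM elsewhere, where the median was 0. TraesCS2B03G1501600 was at 15.4, 178 and 273 TPM, at 170, 158, 126 and 164 TPM, and at 19.2 to 46 TPM (median 28) elsewhere. Replicate 1 was above the other genotypes in the first gene by a small margin and below all of them in the second.

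A monooxygenase term was carried by 3 genes, 2 of them with iron ion binding as well. TraesCS4A03G0123000 was at 18, 31.9 and 49.1 TPM in *tabri1-a.1bd*, at 23.6, 14.5, 14.5 and 20.7 TPM in *tabri1-a.2bd* and at 2.06 to 5.36 TPM (median 2.98) elsewhere. TraesCS4B03G0647900 was at 86.3, 89.7 and 110 TPM, at 52, 39, 36 and 44.7 TPM, and at 7.37 to 23.8 TPM (median 11.6). TraesCS2A03G0138700 was at 24.5, 14.4 and 16 TPM, at 0.8, 0.505, 2 and 0.641 TPM, and at 0.0277 to 0.444 TPM (median 0.144). Monooxygenases put oxygen into small molecules, and in all 3 genes the 7 dwarf libraries lay above the 16 others.

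Acid phosphatases, which release phosphate from organic compounds, were the term of 3 genes with different levels. TraesCS4A03G1071200 was at 175, 886 and 883 TPM in *tabri1-a.1bd*, at 390, 408, 374 and 448 TPM in *tabri1-a.2bd* and at 122 to 212 TPM (median 158) elsewhere, with replicate 1 inside the range of the others. TraesCS4B03G0939700 was at 20, 68.4 and 74.8 TPM, at 5.06, 8.02, 6.88 and 6.93 TPM, and at 0.136 to 1.94 TPM (median 0.877). TraesCS3B03G0912100 was low throughout, at 1.38, 1.05 and 1.23 TPM, at 1.04, 0.979, 0.569 and 0.973 TPM, and at 0.0205 to 0.61 TPM (median 0.15). In the last gene replicate 3 of *tabri1-a.2bd* overlapped the other genotypes.

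Carbohydrate enzymes gave a pair of genes. TraesCS2A03G0857500, a glycosyl hydrolase by its terms, was at 741, 786 and 474 TPM in *tabri1-a.1bd*, at 9.14, 8.88, 19.8 and 6.51 TPM in *tabri1-a.2bd* and at 1.87 to 6.82 TPM (median 2.9) elsewhere. TraesCS6D03G0052000, a beta-fructofuranosidase, an enzyme that splits sucrose or fructans, was at 130, 69.1 and 37.5 TPM, at 16, 20.4, 14.6 and 18.8 TPM, and at 6.43 to 13.6 TPM (median 8.18). The first had 1 library of *tabri1-a.2bd* inside the range of the other genotypes and the second had none.

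Lipid synthesis with iron ion binding was the label of a further pair. TraesCS4D03G0183200 was at 163, 103 and 103 TPM in *tabri1-a.1bd*, at 34.6, 26.3, 22.5 and 30.3 TPM in *tabri1-a.2bd* and at 5.78 to 11.6 TPM (median 7.73) elsewhere. TraesCS4B03G0222400 was at 204, 91.5 and 75 TPM, at 15.7, 8.35, 9.83 and 5.77 TPM, and at 1.85 to 7.12 TPM (median 3.38). Both were highest in replicate 1, in contrast to the genes in which that library was low. In the second gene the lowest library of *tabri1-a.2bd* lay inside the range of the other genotypes.

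Transport across membranes was the term of TraesCS7A03G0816900 and TraesCS6D03G0183200. The first was at 170, 196 and 176 TPM in *tabri1-a.1bd*, at 34.6, 24.1, 33.1 and 30.8 TPM in *tabri1-a.2bd* and at 6.69 to 18.1 TPM (median 12.2) elsewhere. TraesCS6D03G0183200 was at 28.8, 24.9 and 18.4 TPM, at 1.59, 1.94, 1.33 and 2.09 TPM, and at 0.0877 to 0.81 TPM (median 0.333). In both genes the order was *tabri1-a.1bd*, *tabri1-a.2bd*, then all other libraries, without overlap.

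Single labels remained for the last 3 genes. TraesCS2A03G0740300, labelled with systemic acquired resistance, a form of defence that spreads through the plant, was at 51.9, 41.6 and 64.1 TPM in *tabri1-a.1bd*, at 30.2, 33.6, 26 and 31.3 TPM in *tabri1-a.2bd* and at 1.11 to 16.3 TPM (median 6.27) elsewhere. TraesCS3A03G0089600, labelled with DNA breakdown, was at 34.8, 37.3 and 44.1 TPM, at 20.9, 21.5, 16.1 and 27.4 TPM, and at 4.49 to 10.7 TPM (median 7.42). TraesCS2A03G1180700, with the same label, was at 0.641, 10.5 and 9.85 TPM, at 3.32, 2.54, 1.44 and 2.4 TPM, and at 0 to 1.3 TPM (median 0.433). Replicate 1 overlapped the other genotypes in the last gene only.

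Against *TaBRI1-NS*, limma, which fits a linear model to the log2(TPM + 0.5) of each gene, called genes with p of at most 0.05 after Benjamini-Hochberg adjustment over all 83495 genes tested. A filter on low values kept 133 of the 135 genes. In *tabri1-a.1bd*, 106 of the 133 were called higher, where 24.5% of all genes were, and in *tabri1-a.2bd* 86 were, where 3.99% of all genes were. In both, 78 were called higher, where 2.71% of all genes were. The rule used these contrasts, so nothing is read from the counts. Without replicate 1 of *tabri1-a.1bd*, 131 genes were called higher in that mutant (24.7% of all genes), 119 in *tabri1-a.2bd* (8.16% of all genes) and 119 in both (4.93% of all genes). The fit shares 1 spread per gene between genotypes, so the library also moved the count of *tabri1-a.2bd*, whose log2 differences it does not enter.

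No gene of the 133 was called between *tabri1-a.3bd* and *TaBRI1-NS* by limma (2.3% of all genes in either direction), and 5 had an unadjusted p of 0.05 or less. The rule had bounded this difference as well. Between *tabri1-bd* and *TaBRI1-NS* 0 were called (0.126% of all genes) with 2 at an unadjusted p of 0.05 or less, and between Cadenza and *TaBRI1-NS* 0 were called (2.23% of all genes) with 4. Within the allowed range, *tabri1-a.3bd* was above the mean of the 3 control genotypes for 95 of 135 genes, with a median difference of 0.15 on the log2 scale. Against *TaBRI1-NS* alone, it was higher for 82 of 133 genes (61.7%), a share that was 61.2% over all genes tested.

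The rule set a lower bound on both dwarf mutants and no order between them, although it drew on the same libraries. Between them, limma called 66 of the 133 genes, 61 higher in *tabri1-a.1bd* and 5 higher in *tabri1-a.2bd*. Over all genes tested, 39.6% were called, 19.4% higher in *tabri1-a.1bd* and 20.2% higher in *tabri1-a.2bd*. Of the set, 45.9% were called higher in *tabri1-a.1bd*, and 3.76% were higher in *tabri1-a.2bd*. Because the rule admitted no gene that was lowered in *tabri1-a.1bd*, these shares cannot be set against those over all genes as a result. The median log2 difference was 0.75 over the 133 genes and 0.00 over all genes. In 47 of 135 genes all libraries of *tabri1-a.1bd* lay above all of *tabri1-a.2bd*, and in 0 genes did the reverse hold. The same limit applies to these counts and to the median, and no share without overlap was taken over all genes.

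Without replicate 1 of *tabri1-a.1bd*, 84 of the 133 genes were called higher in *tabri1-a.1bd* (17.8% of all genes) and 0 in *tabri1-a.2bd* (16.1% of all genes), and the median log2 difference was 1.23 over the set and 0.07 over all genes. The counts moved in the genes in which that library was low. Of the 79 genes with replicate 1 above the 16 other libraries, 61 were called higher in *tabri1-a.1bd* with it and 59 without it. Of the 54 tested genes with replicate 1 not above them, 0 were called higher with it and 25 without it, and their median log2 difference moved from -0.39 to 0.92. This split was made on the library itself and is given without a test.

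**Figure D3:**
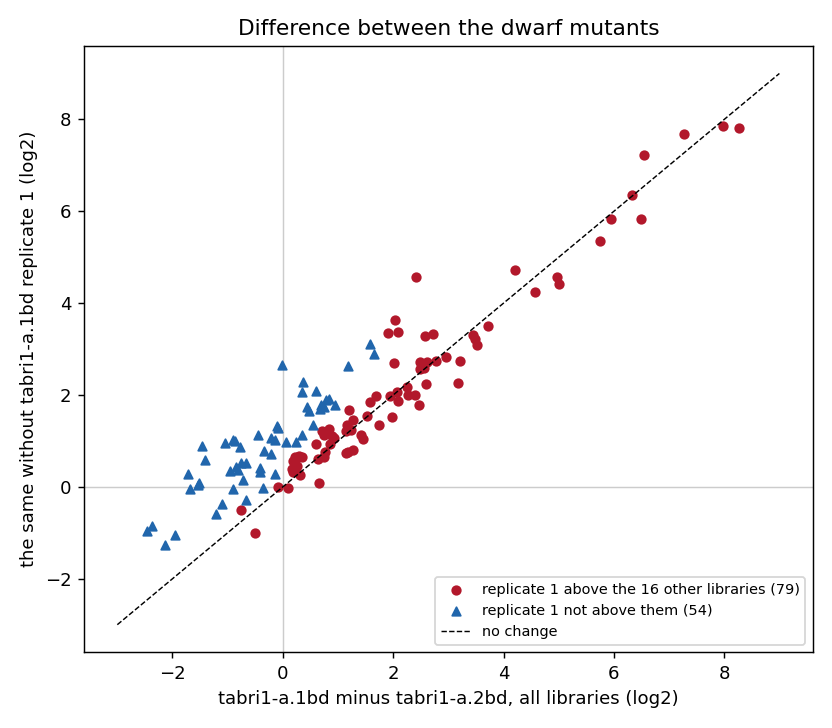
Log2 difference between *tabri1-a.1bd* and *tabri1-a.2bd* for the 133 genes tested, from all libraries (horizontal) and without replicate 1 of *tabri1-a.1bd* (vertical); the dashed line marks equal values. The 79 genes with replicate 1 above the 16 other libraries (circles) lie near the line, and the 54 others (triangles) lie above it.

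The 5 genes with the largest differences, among those whose libraries did not overlap between the dwarf mutants, were low in *tabri1-a.2bd*. TraesCS7D03G0450100, described above, differed by 8.26 on the log2 scale (SE 0.88, limma adjusted p = 2e-07). TraesCS2B03G1362300 was at 329, 279 and 232 TPM in *tabri1-a.1bd*, at 0.589, 2.19, 0 and 0.527 TPM in *tabri1-a.2bd* and at 0 to 0.482 TPM elsewhere, where the median was 0, and it differed by 7.97 (SE 0.37, limma adjusted p = 1.4e-12). TraesCS6A03G0951000 was at 103, 227 and 272 TPM, at 0.833, 0.43, 0.23 and 1.82 TPM, and at 0 to 0.774 TPM (median 0.0428), a difference of 7.27 (SE 0.38, limma adjusted p = 6.3e-12). In all 3 genes most libraries of *tabri1-a.2bd* were closer to the controls than to *tabri1-a.1bd*.

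TraesCS6A03G0336100 was at 46.3, 296 and 123 TPM in *tabri1-a.1bd*, at 2.85, 1.36, 0 and 0.371 TPM in *tabri1-a.2bd* and at 0 to 0.513 TPM elsewhere, where the median was 0, and it differed by 6.54 (SE 0.54, limma adjusted p = 5.5e-09). TraesCS1A03G0451400 was at 263, 91.2 and 50.1 TPM, at 0.271, 0.285, 1.99 and 0.815 TPM, and at 0 to 0.503 TPM (median 0.0478), a difference of 6.49 (SE 0.43, limma adjusted p = 2.1e-10). In 4 of the 5 genes only 2 libraries of *tabri1-a.2bd* lay above the 16 others, and in TraesCS2B03G1362300 3 did. The fit shares 1 spread per gene between genotypes, and the spread was larger in *tabri1-a.1bd*, so these p-values may be too small. In a separate fit of the dwarf mutants, the limma adjusted p of the 5 genes lay between 0.00016 and 0.0021.

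The 5 genes called higher in *tabri1-a.2bd* all had a low replicate 1 in *tabri1-a.1bd*, overlapped between the dwarf mutants, and are named after their values were seen. TraesCS1D03G0052800, at 21.7, 23.6, 15.8 and 25.3 TPM in *tabri1-a.2bd*, was lower in *tabri1-a.1bd* with a log2 difference of -2.46 (SE 0.76, limma adjusted p = 0.013), which was -0.97 without replicate 1 (limma adjusted p = 0.15). TraesCS1B03G0067900 was at 0.504, 15 and 34.8 TPM in *tabri1-a.1bd* and at 52, 37.1, 55.4 and 29.1 TPM in *tabri1-a.2bd*, with a log2 difference of -2.37 that was -0.86 without replicate 1. TraesCS7B03G1229600 was at 0.43, 1.44 and 15.5 TPM and at 21.5, 12.9, 11.8 and 8.46 TPM, with a difference of -2.13 that was -1.27 without it. None of the 5 was called without replicate 1.

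TraesCS5A03G0020700 was at 0, 1.16 and 6.07 TPM in *tabri1-a.1bd* and at 7.02, 5.57, 6.88 and 5.85 TPM in *tabri1-a.2bd*, and its log2 difference of -1.95 was -1.04 without replicate 1. TraesCS1B03G0824100 was at 0.267, 2.69 and 2.1 TPM and at 3.83, 5.03, 2.58 and 4.16 TPM, and its difference of -1.21 was -0.58 without replicate 1. Replicate 1 was the lowest of the 7 dwarf libraries in both.

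**Figure D4:**
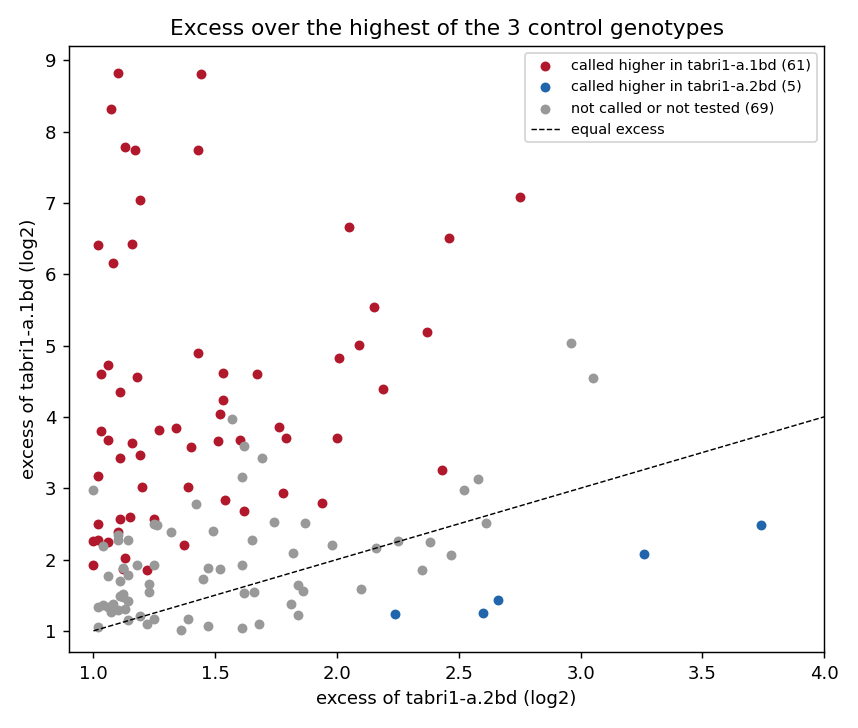
Excess of *tabri1-a.2bd* (horizontal) and *tabri1-a.1bd* (vertical) over the highest of the 3 control genotypes, on the log2 scale, for the 135 genes, coloured by the limma call between the dwarf mutants. The 61 genes called higher in *tabri1-a.1bd* spread up to an excess of 8.82, mostly with an excess of *tabri1-a.2bd* below 2, and the 5 called higher in *tabri1-a.2bd* lie at the lower right.

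The genes were spread over all 21 chromosomes, with 3 to 11 on each and 1 on an unplaced scaffold. By subgenome, 51 lay on A, 41 on B and 42 on D (37.8%, 30.4% and 31.1%), where the high-confidence genes tested were at 33.6%, 32.8% and 33.3%. Identifiers follow the order of genes along a chromosome. In this order of high-confidence genes, 8 of the 135 lay directly beside another, and 26 lay within 14 pairs that had at most 12 genes between them.

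Adjacent members often shared the pattern of replicate 1. TraesCS1B03G0067900 and TraesCS1B03G0068000, described above, were both lower in that library than in all others. TraesCS4B03G0575100 was at 0.204, 14.9 and 21.5 TPM in *tabri1-a.1bd*, at 16.7, 16, 17 and 20.1 TPM in *tabri1-a.2bd* and at 1.06 to 4.21 TPM (median 2.53) elsewhere, and its neighbour TraesCS4B03G0575000 was below all other libraries in replicate 1 as well. TraesCS5A03G0660700 had the opposite order, at 16.8, 6.25 and 8.33 TPM in *tabri1-a.1bd* and at 2.51, 0, 2.94 and 2.2 TPM in *tabri1-a.2bd*, against 0 to 0.767 TPM elsewhere.

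Its neighbour TraesCS5A03G0660800 was at 7.51, 1.77 and 4.69 TPM in *tabri1-a.1bd*, at 2.23, 0.245, 1.52 and 1.4 TPM in *tabri1-a.2bd* and at 0 to 0.83 TPM elsewhere. Both genes of this pair were highest in replicate 1 and lowest among the dwarf libraries in replicate 2 of *tabri1-a.2bd*. The fourth pair joined TraesCS4B03G0647900 with TraesCS4B03G0647300, which was at 3.61, 9.56 and 28.8 TPM in *tabri1-a.1bd*, at 4.35, 3.59, 0.4 and 2.29 TPM in *tabri1-a.2bd* and at 0 to 0.832 TPM (median 0.137) elsewhere. Reads shared by near-identical neighbouring copies could have been split or left out in counting, whose options are not given in the sources used here, so values of adjacent genes may not be independent.

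A close pair with 1 gene between, named after its values were seen, also had low values in replicate 1. TraesCS5B03G0016100 was at 0.511, 54.1 and 70.5 TPM in *tabri1-a.1bd*, at 59, 44.6, 49.4 and 52.8 TPM in *tabri1-a.2bd* and at 9.4 to 17.5 TPM (median 11.9) elsewhere. TraesCS5B03G0016400 was at 1.06, 34.4 and 56.2 TPM, at 50, 38.9, 39.6 and 37.8 TPM, and at 8.56 to 16.8 TPM (median 10.4). Replicate 1 was below every control library of both genes, and the other 6 dwarf libraries were above every one.

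Nearest neighbours that were not in the set give a view of genes the rule did not choose. Of 256 such high-confidence genes, 152 were tested, and limma called 20 of them higher in both dwarf mutants than in *TaBRI1-NS* (13.2%), against 2.42% of the high-confidence genes tested. In *tabri1-a.1bd* 67 were called higher (44.1%, against 24.6%) and in *tabri1-a.2bd* 24 (15.8%, against 3.63%). Without replicate 1 of *tabri1-a.1bd*, 27 were called higher in both (17.8%, against 4.73%), 71 in *tabri1-a.1bd* (46.7%, against 24.9%) and 40 in *tabri1-a.2bd* (26.3%, against 8.15%). Of these 20 genes 16 passed the excess of 1, and in all 16 *tabri1-a.3bd* was above the allowed range, which kept them out of the set.

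**Figure D5:**
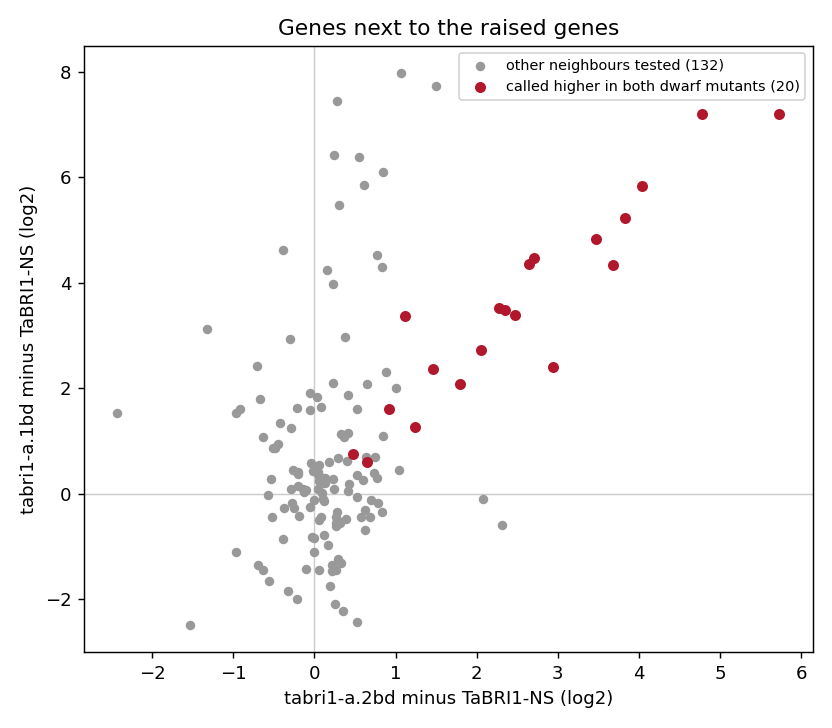
Log2 difference from *TaBRI1-NS* in *tabri1-a.2bd* (horizontal) and *tabri1-a.1bd* (vertical) for the 152 tested genes directly beside a gene of the set. The 20 genes called higher in both dwarf mutants (red) run to the upper right, and the other 132 (grey) mostly lie near 0 in *tabri1-a.2bd*, some of them high in *tabri1-a.1bd*.

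The neighbours and the members beside them differed in level. TraesCS1B03G0068200, beside TraesCS1B03G0068000, was at 28.1, 1004 and 1030 TPM in *tabri1-a.1bd* and at 102, 63.6, 89.3 and 107 TPM in *tabri1-a.2bd*, a log2 difference from *TaBRI1-NS* of 5.84 (SE 0.80, limma adjusted p = 5.1e-06) and 4.04 (SE 0.74, limma adjusted p = 0.0019). Without replicate 1 the first difference was 7.55 (SE 0.41, limma adjusted p = 1.3e-11). Replicates 2 and 3 of *tabri1-a.1bd* were higher in this neighbour than in the member, and all libraries of *tabri1-a.2bd* were lower. TraesCS4B03G0939600 and TraesCS4B03G0939900, on either side of the acid phosphatase gene TraesCS4B03G0939700, were higher by 2.65 and 3.83 in *tabri1-a.2bd* and by 4.36 and 5.23 in *tabri1-a.1bd*. TraesCS6D03G0051900, beside the beta-fructofuranosidase gene TraesCS6D03G0052000, was at 220, 117 and 63.7 TPM in *tabri1-a.1bd* and at 24.4, 29.9, 16.7 and 29.6 TPM in *tabri1-a.2bd*. It missed the rule by a small margin, with *tabri1-a.3bd* at 0.510 above the mean of the 3 control genotypes.

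At the edges, the rule separated genes with nearly equal values. The 3 members with the smallest excess, TraesCS4A03G0540100, TraesCS1B03G0048500 and TraesCS1A03G0709000, had 1.001, 1.003 and 1.004, and the 3 genes just outside, TraesCS1A03G0195200, TraesCS3D03G0730500 and TraesCS7D03G0023000, had 1.000, 1.000 and 0.999, each below 1 before rounding. On the side of *tabri1-a.3bd*, TraesCS4B03G0647900, TraesCS4D03G0499400 and TraesCS2B03G0150600 were inside at 0.494, 0.497 and 0.499, and TraesCS5A03G0410200, TraesCS3B03G0222400 and TraesCS6D03G0051900 were outside at 0.507, 0.509 and 0.510. Of 318 genes that passed the excess, 183 had *tabri1-a.3bd* above the allowed range and 0 had it below. The set is therefore the part of a larger group of genes raised in both dwarf mutants in which *tabri1-a.3bd* stayed near the controls.

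Not all members were well supported. In 8 genes only 1 library of *tabri1-a.2bd* lay above the 16 others, and in 3 genes only 1 library of *tabri1-a.1bd* did. TraesCS1B03G0048500 was at 0, 4.15 and 9.39 TPM in *tabri1-a.1bd* and at 0.121, 0.159, 2.82 and 0 TPM in *tabri1-a.2bd*, so that 1 library carried the mean. TraesCS7D03G0117000, named after its values were seen, was at 12.9, 60.5, 7.5 and 20.3 TPM in *tabri1-a.2bd*, while the 16 others reached 21.5 TPM. The 2 genes that the filter removed were TraesCS7A03G0557900, at 0, 0 and 2.67 TPM in *tabri1-a.1bd* and 0, 0, 0 and 3.93 TPM in *tabri1-a.2bd*, and TraesCS1D03G0891100, at 0, 1.61 and 0 TPM and 0, 0, 0 and 2.06 TPM.

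Values of 0 in all 12 libraries of the control genotypes were listed for 3 genes, and for 1 of them in all 16 libraries outside the dwarf mutants. The latter, TraesCS1A03G0908200, was at 56.6, 25.3 and 23 TPM in *tabri1-a.1bd* and at 0.396, 0.347, 0.928 and 0.567 TPM in *tabri1-a.2bd*. TraesCS1A03G0409800 was at 1.23, 4.03 and 3.64 TPM and at 0.956, 0.591, 2.28 and 1.85 TPM. Both were above 0 in every dwarf library, and the third gene was TraesCS1D03G0891100. Over the 134 genes with recovered reads, the median of a gene's median reads was 140.5 in the dwarf libraries and 22.25 in the 16 others, so for many genes the level outside the dwarf mutants rests on few reads.

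The pathway genes kept out of the set were called in the same way, and their relation to the set was not tested. Of 76 genes in the list, 68 were tested against *TaBRI1-NS*. In *tabri1-a.1bd* 24 were called higher (35.3%, against 24.5% of all genes) and 12 lower (17.6%, against 19.3%). In *tabri1-a.2bd* 11 were called higher (16.2%, against 3.99%) and 0 lower (3.47% of all genes), and in *tabri1-a.3bd* 4 were called higher (5.88%, against 1.65%). Without replicate 1 of *tabri1-a.1bd*, 34 were higher (24.7% of all genes) and 9 lower (16.6% of all genes) in *tabri1-a.1bd*, and 23 were higher (8.16% of all genes) and 2 lower (5.87% of all genes) in *tabri1-a.2bd*. The library thus moved the counts of this list as well.

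Of the 23 tested genes of BR-specific synthesis, 14 were higher (60.9%) and 4 lower in *tabri1-a.1bd*, and 9 were higher (39.1%) and 0 lower in *tabri1-a.2bd*. Without replicate 1 these counts were 18 (78.3%, against 24.7%) and 2 (8.7%, against 16.6%) in *tabri1-a.1bd*. For *tabri1-a.2bd* they were 14 (60.9%, against 8.16%) and 0 (5.87% of all genes). Of the 15 tested genes of the sterol pathway, 1 was higher (6.67%, against 24.5%) and 2 lower (13.3%, against 19.3%) in *tabri1-a.1bd*. None was called in *tabri1-a.2bd*. Without replicate 1, 7 were higher (46.7%, against 24.7%) and 2 lower (13.3%, against 16.6%) in *tabri1-a.1bd*. For *tabri1-a.2bd* these counts were 4 (26.7%, against 8.16%) and 1 (6.67%, against 5.87%). Of the 19 tested genes listed as signalling components, 6 were higher in *tabri1-a.1bd* (31.6%, near the 24.5% of all genes) and 3 lower (15.8%, near 19.3%). In *tabri1-a.2bd* 0 were called, where 3.99% of all genes were higher and 3.47% lower. Without replicate 1, 5 were higher (26.3%, near 24.7%) and 2 lower (10.5%, against 16.6%) in *tabri1-a.1bd*, and 0 were called in *tabri1-a.2bd*. Another 11 tested signalling genes, *TaBRI1* among them, are listed as wall components. In *tabri1-a.1bd* 3 were higher (27.3%, near 24.5%) and 3 lower (27.3%, against 19.3%), the latter the copies of *TaBKI1*. In *tabri1-a.2bd* 2 were higher (18.2%, against 3.99%) and 0 lower. Without replicate 1 the counts were 4 (36.4%) and 3 (27.3%) in *tabri1-a.1bd*, and 5 (45.5%) and 1 (9.09%) in *tabri1-a.2bd*.

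The excess of 1 was passed by 7 pathway genes, all copies of *BR6ox1* (CYP85A1), the oxidase of late BR synthesis. In 2 of them *tabri1-a.3bd* was also in the allowed range, so they would have been members. *TaBR6ox1-D3* (TraesCS2D03G0027700) had a smaller excess of 2.46 and was at 0.573, 26.8 and 27.3 TPM in *tabri1-a.1bd* and at 3.57, 5.55, 5.55 and 6.69 TPM in *tabri1-a.2bd*. *TaBR6ox1-A3* (TraesCS2A03G0028800) had a smaller excess of 1.01 and was at 0.705, 3.86 and 3.87 TPM and at 0.535, 0.864, 0.417 and 0.634 TPM. In *TaBR6ox1-D3* replicate 1 of *tabri1-a.1bd* lay among the control libraries, and in *TaBR6ox1-A3* it lay above them.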

How the data were processed

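RNA of whole seedling shoots was sequenced in 23 libraries of 6 genotypes, and the groups follow the labels. Read pairs were trimmed by the authors (Trimmomatic 0.39), aligned to the IWGSC RefSeq v2.1 assembly (STAR 2.7.8a) and counted per gene (HTSeq 0.11.3), and TPM per library were deposited. The counting options are not given in the sources used here. TPM are relative to each library's total, so a large rise of some genes lowers the others.

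Genes with at least 0.5 TPM in at least 3 libraries (83495 of 266760) were fitted on the log2(TPM + 0.5) scale, which understates changes of low genes, with limma 3.58.1 in R 4.3.3 (lmFit, then eBayes with trend and robust, with statmod 1.5.0), with 1 term per genotype and 1 fit for all libraries. Tables were made with Python 3.11.15, numpy 2.4.6 and pandas 2.3.3, and figures with matplotlib 3.10.9. The fit was tested on simulated data that gave all genotypes the same spread per gene. The measured spread was larger in *tabri1-a.1bd*, so that test does not cover p-values of its contrasts, which may be too small. Whole reads, within 0.01 of a read, were recovered from the TPM of 104040 genes with at least 99.79% of the TPM of every library, and depths cover counting error only.

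The members and lists were chosen with earlier results of these data known. Named genes were the 10 with the largest smaller excess, the 6 with the highest mean TPM in the dwarf libraries (also TraesCS4A03G1071200, TraesCS2A03G0857500 and TraesCS1B03G0069700), the 5 with the largest difference between the dwarf mutants without overlap (0 genes had *tabri1-a.2bd* higher without overlap), all 17 with a term, adjacent members and genes at the thresholds, and others are marked. No identifier matched the gene table at hand, so product names, tissue markers, homoeologous copies and sequences were not analysed here. Alternatives were pseudocounts of 0.1 and 1, other filters, high-confidence genes only, size factors, array weights, separate fits, a block for the replicate number, and the omission of single libraries. Chosen after seeing the data were voom on recovered reads, the omission of libraries that do not enter a contrast, the fits without replicate 1 of *tabri1-a.1bd* for genes raised in both dwarf mutants, for neighbours and for pathway genes, and the contrasts of *tabri1-a.3bd*, *tabri1-bd* and Cadenza.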

Additional observations from a re-analysis of the deposited data

Results flagged for a closer look

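By limma's test of the difference between the dwarf mutants, 66 of the 133 genes were called. Listed here are 10 of them, the 5 with the largest difference without overlap and all 5 called higher in *tabri1-a.2bd*. As log2 differences of *tabri1-a.1bd* from *tabri1-a.2bd*, they were 8.26 for TraesCS7D03G0450100, 7.97 for TraesCS2B03G1362300, 7.27 for TraesCS6A03G0951000, 6.54 for TraesCS6A03G0336100 and 6.49 for TraesCS1A03G0451400. In the other direction they were -2.46 for TraesCS1D03G0052800, -2.37 for TraesCS1B03G0067900, -2.13 for TraesCS7B03G1229600, -1.95 for TraesCS5A03G0020700 and -1.21 for TraesCS1B03G0824100.

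In genotypes with 4 libraries, a sample far from the others was looked for in 145 groups, covering 28 genes and the median over the set, and 18 were found, where chance gives about 1 in 20. *tabri1-a.1bd*, with 3 libraries, could not be looked at in this way. The median over the set was highest in replicate 1 of *tabri1-a.2bd*, at 1.69 against 1.58 in each of the other 3 libraries.

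Most of the outlying values were single libraries above 0 among libraries at or near 0. In *tabri1-a.3bd*, TraesCS2A03G0168200 was at 0.652 TPM in replicate 3, TraesCS2D03G1268900 at 0.247 TPM in replicate 2, TraesCS2B03G1362300 at 0.41 TPM and TraesCS6A03G0951000 at 0.774 TPM in replicate 4, and TraesCS5A03G0660700 at 0.363 TPM in replicate 3. In *tabri1-bd* replicate 3, TraesCS2A03G0168200 was at 0.0513 TPM and TraesCS2B03G1362300 at 0.482 TPM. In *TaBRI1-NS*, TraesCS2D03G1268900 was at 0.0482 TPM in replicate 2, TraesCS6A03G0951000 at 0.27 TPM and TraesCS5A03G0660700 at 0.22 TPM in replicate 1, and TraesCS5A03G0660800 at 0.83 TPM in replicate 3. In Cadenza replicate 4, TraesCS6A03G0336100 was at 0.175 TPM and TraesCS5A03G0660800 at 0.188 TPM.

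In 4 groups 1 library was low. TraesCS5A03G0660700 was at 0 TPM in replicate 2 of *tabri1-a.2bd* against 2.51, 2.94 and 2.2 TPM. TraesCS1A03G0675300 was at 0.236 TPM in replicate 1 of *tabri1-bd* against 2.86, 2.63 and 3.52 TPM. TraesCS4A03G0123000 was at 2.33 TPM in replicate 1 of *TaBRI1-NS* against 3.25, 3.25 and 3.16 TPM, and TraesCS4B03G0575000 at 2.17 TPM in replicate 2 of Cadenza against 3.99, 4.32 and 3.99 TPM.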

How the results depend on the processing

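The rule gave 261 genes in place of 135 with a pseudocount of 0.1, of which 96 were among the 135. With limma's array weights, 42 in place of 66 genes were called between the dwarf mutants, and with a separate fit of both genotypes 46 were. Against *TaBRI1-NS*, the separate fit gave 79 in place of 106 genes for *tabri1-a.1bd*, but 99 in place of 86 for *tabri1-a.2bd*. Array weights gave 104 for *tabri1-a.1bd* and 119 for *tabri1-a.2bd*. With voom on recovered reads, 56 in place of 86 were called between *tabri1-a.2bd* and *TaBRI1-NS*. For *tabri1-a.1bd* voom called 85 in place of 106, and between the dwarf mutants it again called 66. The causes were not tested. Leaving out 1 library gave 115 to 152 genes by the rule, 61 to 84 genes called between the dwarf mutants, and against *TaBRI1-NS* 87 to 131 in *tabri1-a.1bd* and 65 to 119 in *tabri1-a.2bd*. The highest of each range was without replicate 1 of *tabri1-a.1bd*, equalled for the rule by leaving out replicate 3 of *tabri1-a.3bd*. The lowest count by the rule was without replicate 3 of *tabri1-a.1bd*. Each of the 5 genes called higher in *tabri1-a.2bd* lost the call with array weights, with a separate fit of both genotypes and without replicate 1 of *tabri1-a.1bd*, and TraesCS1B03G0824100 also with a pseudocount of 0.1. Alternatives were run for the 10 genes named for their difference between the dwarf mutants, and none of these reversed. With the replicate number as a block, 67 genes were called between the dwarf mutants, and 104 and 86 in *tabri1-a.1bd* and *tabri1-a.2bd* against *TaBRI1-NS*. Same-numbered libraries of different genotypes had correlations of -0.131 to 0.11, above 0.1 in 1 of 55 pairs, so the numbers do not pair the libraries. Depth limits the control level, as 20 of 134 genes had under 10 reads in each of the 16 libraries outside the dwarf mutants.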
